A study of Arabidopsis thaliana with 18 samples.

Results

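The 43 probe sets described here rose after 1 h of low R:FR light in wild-type Arabidopsis thaliana seedlings and in the mutant sav1-1, and rose less in the mutant sav3-2. They were chosen on those differences. The mean under low R:FR (SH) minus the mean in white light (Wc) had to be at least 0.6 in Col-0 and in sav1-1 on the scale log2(intensity + 16). The lowest SH array had to lie above the highest Wc array in both, and the rise in sav3-2 had to be below 50% of that in Col-0. Of 22746 probe sets, 168 met the conditions on Col-0 and sav1-1. The rule leaves out symbols starting IAA, GH3, HAT, YUC, EXLA, XTH, BZIP, WRKY, MYB, CYP or UGT, and the genes AT4G27280, AT2G18010 and WES1. Of these, the Aux/IAA, GH3, HAT, YUC and expansin families are known for auxin or shade responses. From the 168, 14 were left out by symbol in this way. That left 154 shade-raised probe sets, of which 43 are the members and 111 rose by at least 50% as much in sav3-2 as in Col-0. Of the 43, 14 name 1 gene and 29 are unnamed here. An unnamed probe set cannot be left out by symbol, so the 29 may hold genes of the families left out.

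Low R:FR is the light that plants receive next to other leaves, since chlorophyll absorbs red light and lets far-red light pass. It switches phytochrome photoreceptors to their inactive form, which releases PIF transcription factors from inhibition. One of the known outputs is auxin synthesis through the enzyme TAA1, also called SAV3, and the YUCCA monooxygenases, which raises auxin and the genes that answer to it and drives elongation of hypocotyls and petioles. Genes whose shade response needs this step form one arm of the response, and genes answering to phytochrome and PIFs without it form another.

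RNA came from whole seedlings, 7 days old, kept at 22 °C on Murashige-Skoog medium under constant artificial white light, with red at 13 and blue at 1.23 µmol m-2 s-1, and was read on 18 Affymetrix arrays. The Wc groups stayed in that light, and the SH groups had far-red added for 1 h at 20.2 in the same unit, giving an R:FR of 0.7. Each light was applied to the wild type Col-0, to sav3-2 and to sav1-1, with 3 biological replicates in each of the 6 groups. Both mutants are in the Col-0 background, each was represented by 1 allele, and which gene is mutated in sav1-1 is not stated in the labels. Median intensities as deposited lay between 34.4 and 65.6 per array, and Pearson correlations between arrays within a group ran from 0.973 to 0.987. Few markers of the tissue are named by a probe set. RCA, the activase of Rubisco in green tissue, read between 12.68 and 13.05 on every array, and PYK10, a glucosidase known from roots, between 12 and 12.62, and neither was called by shade in any genotype. EXPA18 and EXPA7, expansins of root hairs, read 5.45 to 6.37 and 5.17 to 6.32. Seed storage markers were not named by a probe set kept. In whole seedlings, less RNA per cell and fewer expressing cells cannot be told apart.

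Across the members the median rise was 1.06 in Col-0 (range 0.63 to 3.26), 0.29 in sav3-2 (-0.03 to 1.31) and 1.15 in sav1-1 (0.60 to 3.76). The median rise of all 17125 probe sets kept was -0.01 in each genotype. All 43 members passed the filter on low values, in which the shaded Col-0 and sav1-1 arrays that the rule requires to be high take part. On the other 12 arrays 7 members exceeded the intensity of 16 fewer than 3 times, so that these passed through the choice itself. They were 261766_at, 254685_at, 259785_at, 259332_at, 255177_at, AT3G55840 and AT5G52890. The first 3 never exceeded it there (highest 13.2, 11.2 and 10.3). The rise in sav3-2 had a median of 33.49% of that in Col-0. It was below 0.1 for 6 members, at least 0.6 for 7 and at least 1 for 2. A rise of at least 1 log2 unit was seen for 23 members in Col-0 and 27 in sav1-1. On arrays of the same replicate number the rise in sav3-2 was below that in Col-0 for 35, 42 and 42 of the 43 members, and for 33 on all 3 numbers. These values are what the rule selected, so they describe the members and carry no test.

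**Figure D1:**
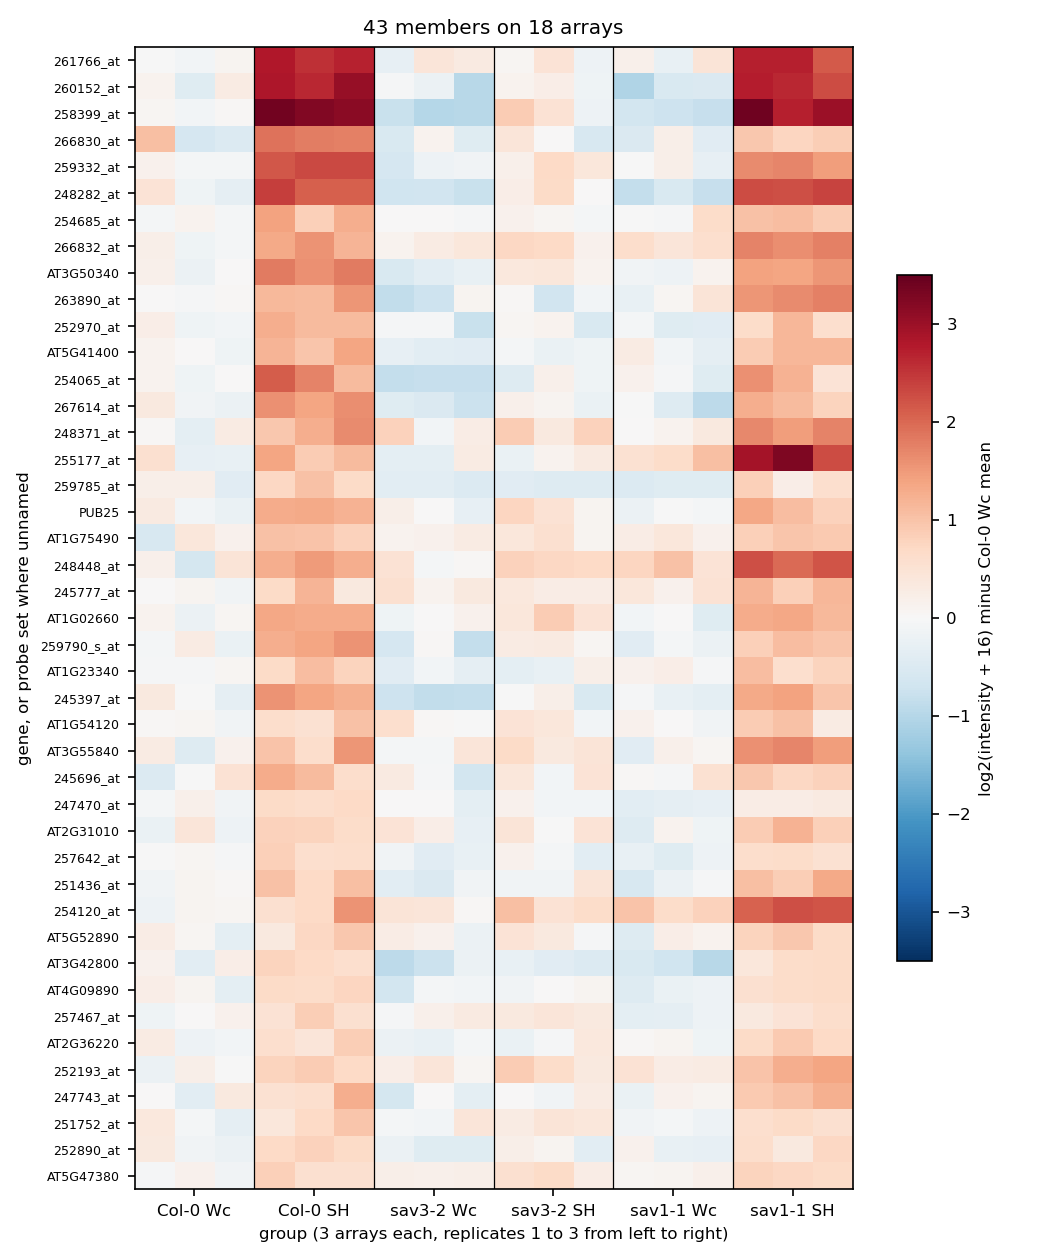
Each row is 1 member and each column 1 array, coloured by log2(intensity + 16) minus that member's mean over the 3 Col-0 Wc arrays, with rows ordered by the difference between the rise in Col-0 and in sav3-2. The SH columns of Col-0 and sav1-1 are above the Col-0 Wc mean on every array, in shades from pale to dark red, and those of sav3-2 are pale for most members, with a median rise of 0.29.

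**Figure D2:**
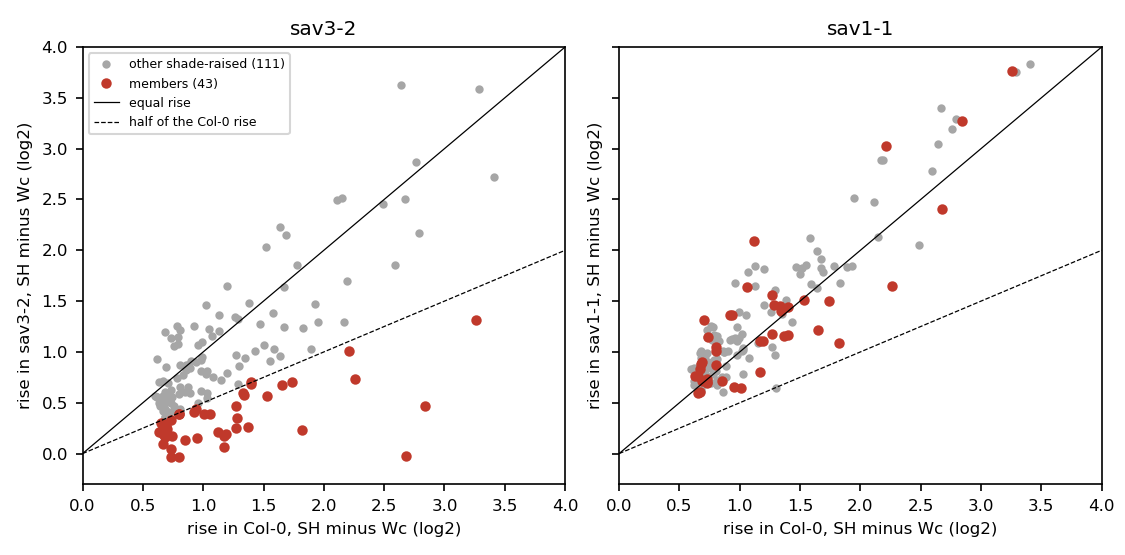
The rise (SH minus Wc, log2) in sav3-2 (left) and sav1-1 (right) is plotted against that in Col-0 for the 154 shade-raised probe sets, with the 43 members in red, the 111 others in grey, a solid line for equal rises and a dashed line at 50% of the Col-0 rise. Members lie under the dashed line in sav3-2 by the rule, and on both sides of the solid line in sav1-1, where 23 rose more than in Col-0 and 20 less.

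By limma, 35 members were called higher under SH in Col-0 at a Benjamini-Hochberg adjusted p under 0.05, where 0.940% of all probe sets tested were, 3 in sav3-2 (0.631%) and 37 in sav1-1 (1.38%). The 3 called in sav3-2 were AT3G50340, 248282_at and 258399_at. With the replicate number as a block, 8 members were called in sav3-2. The share of all probe sets called in that fit was not counted, so nothing is read from the larger count. In sav3-2 the 3 SH arrays lay above the 3 Wc arrays for 15 of the 43 members and for 6.56% of all probe sets. For the others at least 1 array overlapped. By the test of the difference itself, limma called 5 members as rising less in sav3-2 than in Col-0 (0.0409% of all probe sets) and 4 as rising more in sav1-1 than in sav3-2 (0.0409%). All of these counts follow from the choice of members.

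Of the named members, AT3G50340 had the largest shortfall in sav3-2. The gene table used here gives it no function. Its log2 values in Col-0 were 6.59, 6.22 and 6.43 in white light and 8.22, 8.0 and 8.23 after low R:FR. In sav3-2 they were 5.89, 6.05 and 6.14, then 6.79, 6.82 and 6.55. In sav1-1 they were 6.28, 6.24 and 6.54, then 7.82, 7.79 and 7.95. The groups did not overlap between lights in any genotype, and all 3 shaded sav3-2 arrays stayed more than 1 unit below the lowest shaded array of Col-0. The rise was 1.74 in Col-0, 0.70 in sav3-2 and 1.5 in sav1-1 (SE 0.13 each), so the rise in sav3-2 was 40.1% of that in Col-0.

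A pair of named members belong to families of ubiquitin ligases, which mark proteins for breakdown. AT5G41400, a RING-type protein, read 6.55, 6.44 and 6.27 in Col-0 white light and 7.62, 7.39 and 7.81 under low R:FR. In sav3-2 it read 6.12, 6.06 and 6.02, then 6.34, 6.18 and 6.26, so that every shaded array lay under the highest unshaded array of Col-0. In sav1-1 it read 6.71, 6.32 and 6.11, then 7.32, 7.57 and 7.58. Its rises were 1.19 in Col-0, 0.19 in sav3-2 and 1.11 in sav1-1 (SE 0.14). PUB25, a U-box protein, went from 6.40, 6.0 and 5.86 to 7.38, 7.41 and 7.30 in Col-0. In sav3-2 it went from 6.30, 6.11 and 5.79 to 6.85, 6.58 and 6.17, and the lights overlapped. In sav1-1 it went from 5.89, 6.07 and 6.01 to 7.44, 7.18 and 6.89. Its rises were 1.27, 0.47 and 1.18 (SE 0.18), and the sav3-2 value was 36.6% of that in Col-0.

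Others have roles in transcription, signalling or lipid metabolism. AT1G75490, an AP2-type transcription factor of the DREB2 group, read 4.16, 5.13 and 4.89 and then 5.76, 5.72 and 5.54 in Col-0. It read 4.84, 4.89 and 5.02 and then 5.11, 5.29 and 4.81 in sav3-2, and 4.98, 5.11 and 4.87 and then 5.57, 5.71 and 5.65 in sav1-1. The white-light arrays of Col-0 were spread over almost 1 unit, and 1 of them was close to the lower end of the scale. Rises were 0.95, 0.15 and 0.66 in Col-0, sav3-2 and sav1-1 (SE 0.20). AT2G31010, a protein kinase, read 4.94, 5.60 and 5.01 and 6.0, 5.95 and 5.83 in Col-0 without and with low R:FR. The same conditions gave 5.67, 5.42 and 4.89 and 5.63, 5.17 and 5.67 in sav3-2, where the lights overlapped. In sav1-1 they gave 4.72, 5.30 and 5.03 and 6.07, 6.40 and 6.02. Its rises were 0.74, 0.17 and 1.15 (SE 0.22), and in sav1-1 all shaded arrays lay above those of Col-0.

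AT1G02660, known as a plastid lipase, read 5.94, 5.60 and 5.87 in white light and 7.17, 7.11 and 7.11 after shade in Col-0. In sav3-2 it read 5.64, 5.81 and 5.95 and 6.21, 6.68 and 6.29, and in sav1-1 5.70, 5.81 and 5.37 and 7.11, 7.17 and 6.95. White-light levels were alike in the 3 genotypes to within the spread of the arrays. After shade sav3-2 stood between the white-light and the shaded levels of Col-0, with rises of 1.33, 0.60 and 1.45 in Col-0, sav3-2 and sav1-1 (SE 0.15). AT3G55840, a relative of a beet nematode resistance protein, was dim. It read 4.83, 4.10 and 4.69 and 5.55, 5.16 and 6.09 in Col-0, 4.46, 4.48 and 4.97 and 5.21, 4.87 and 5.0 in sav3-2, and 4.14, 4.73 and 4.61 and 6.15, 6.25 and 6.01 in sav1-1. The 3 shaded sav1-1 arrays were alike, whereas those of Col-0 were spread over almost 1 unit. Rises were 1.06, 0.39 and 1.64 (SE 0.24).

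The remaining 7 named members, like AT3G50340, carry only a locus tag in the tables used, and no role is given to them here. AT3G42800 had lower means in both mutants in white light, with arrays at 5.14, 5.30 and 5.85 in sav3-2 and 5.51, 5.35 and 5.09 in sav1-1 against 6.20, 5.67 and 6.28 in Col-0. After low R:FR it stood at 5.79, 5.64 and 5.58 in sav3-2, 6.46, 6.70 and 6.72 in sav1-1 and 6.84, 6.76 and 6.65 in Col-0. The sav3-2 and Col-0 arrays overlapped in white light, and those of sav1-1 lay below all of Col-0. Its rise in sav1-1 was 1.31 against 0.70 in Col-0 and 0.24 in sav3-2 (SE 0.18), which was 188% and 34.1% of the Col-0 rise. Neither white-light difference passed the test (-0.62 and -0.74, SE 0.18, limma adjusted p = 0.213 and 0.165). AT1G23340 read 5.39, 5.40 and 5.5 and 6.11, 6.51 and 6.22 in Col-0 and 5.03, 5.34 and 5.12 and 5.09, 5.16 and 5.63 in sav3-2. In sav1-1 it read 5.59, 5.65 and 5.38 and 6.5, 6.03 and 6.22, so that 2 of the shaded sav3-2 arrays lay below every unshaded array of the other genotypes. Its rises were 0.85, 0.13 and 0.71 (SE 0.17).

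AT4G09890 stood at 7.12, 6.98 and 6.54 and 7.54, 7.53 and 7.64 in Col-0, with all 3 shaded sav3-2 arrays (6.75, 6.88 and 6.98) within the white-light range of Col-0. Its sav3-2 white-light arrays read 6.24, 6.80 and 6.79, and sav1-1 went from 6.44, 6.66 and 6.70 to 7.44, 7.52 and 7.54. Its rises were 0.69, 0.26 and 0.90 (SE 0.15). For AT1G54120 the shaded sav3-2 arrays (6.68, 6.61 and 6.11) overlapped the white-light ones (6.80, 6.25 and 6.19). Col-0 went from 6.26, 6.28 and 6.08 to 6.83, 6.75 and 7.24, and sav1-1 from 6.36, 6.22 and 6.07 to 7.10, 7.24 and 6.5. Rises were 0.73, 0.05 and 0.73 (SE 0.20), and sav3-2 reached 7.29% of the Col-0 rise, the lowest share of any named member.

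AT2G36220 went from 7.13, 6.66 and 6.74 to 7.44, 7.26 and 7.71 in Col-0 and from 6.89, 6.94 and 6.68 to 7.52, 7.75 and 7.53 in sav1-1. In sav3-2 it went from 6.63, 6.58 and 6.78 to 6.61, 6.79 and 7.22, and the lights overlapped. AT5G52890 went from 4.94, 4.74 and 4.34 to 5.01, 5.40 and 5.61 in Col-0 and from 4.21, 4.91 and 4.80 to 5.45, 5.61 and 5.33 in sav1-1. The gap between the lights in Col-0 was small, and in sav3-2 they overlapped, at 4.92, 4.82 and 4.47 and 5.15, 5.01 and 4.62. AT5G47380 went from 5.61, 5.80 and 5.54 to 6.48, 6.21 and 6.22 in Col-0 and from 5.73, 5.75 and 5.84 to 6.43, 6.37 and 6.32 in sav1-1. In sav3-2 the lights did not overlap, though the lowest shaded array was close to the white-light ones, from 5.86, 5.83 and 5.86 to 6.21, 6.31 and 5.92. The rises in Col-0 and sav3-2 were 0.63 and 0.21 for AT2G36220 (SE 0.16), 0.67 and 0.19 for AT5G52890 (SE 0.23) and 0.65 and 0.30 for AT5G47380 (SE 0.13). All 3 lie near the limit of 0.6, and AT5G47380 is the member closest to it.

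**Figure D3:**
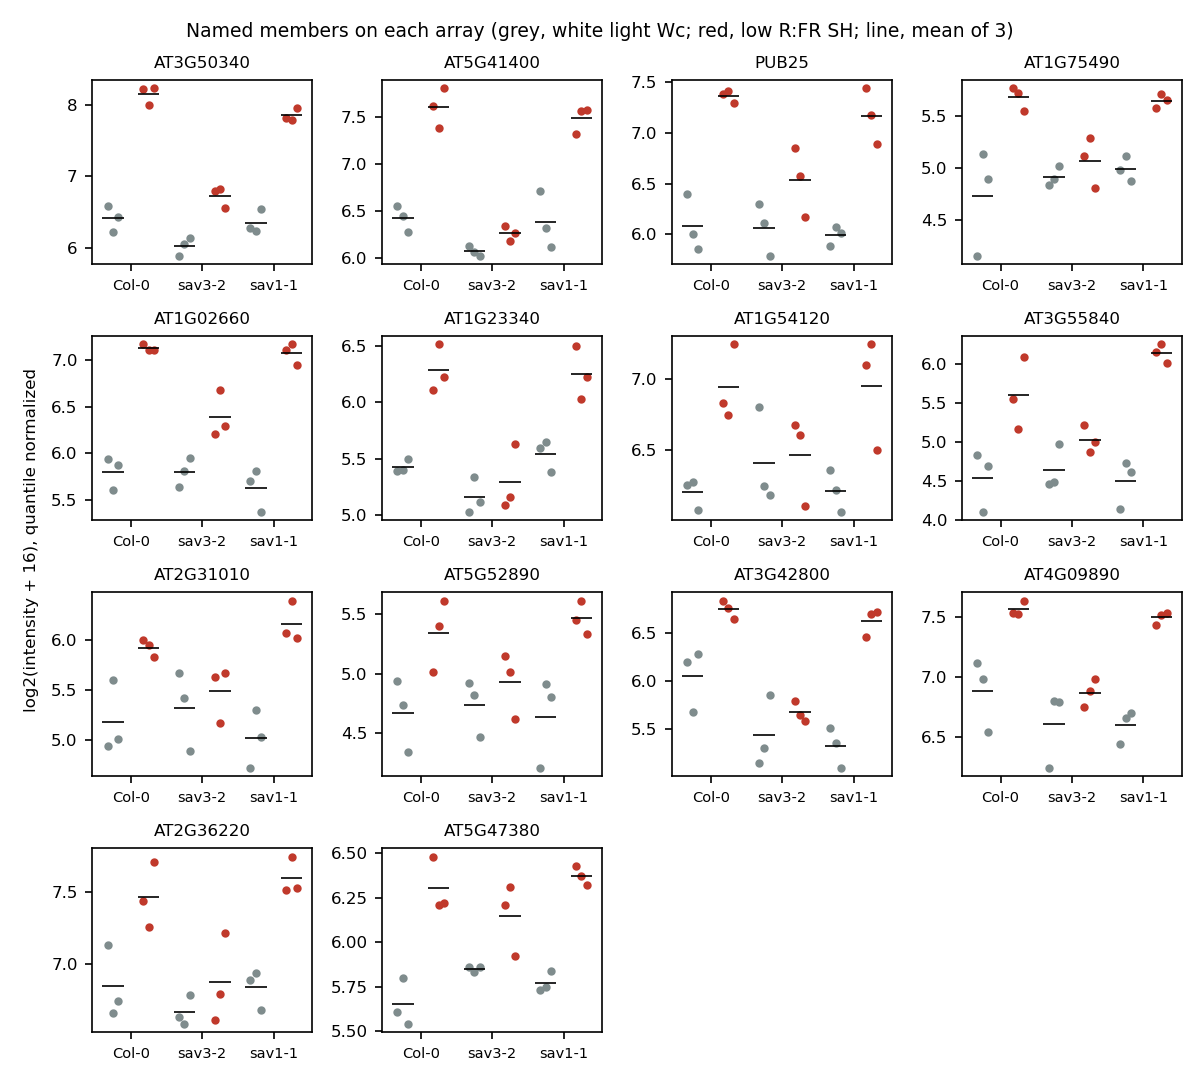
Each panel shows log2(intensity + 16) of 1 named member on the 18 arrays, grey for white light and red for low R:FR, with a line at the mean of 3 arrays; each panel has its own vertical axis. In every panel the red points of Col-0 and sav1-1 lie above their grey points, and for AT3G50340 the shaded sav3-2 arrays stop at 6.79, 6.82 and 6.55.

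The 3 largest shortfalls were those of unnamed probe sets. 261766_at read 4.38, 4.30 and 4.48 and 7.18, 6.95 and 7.08 in Col-0, 4.10, 4.80 and 4.70 and 4.46, 4.87 and 4.21 in sav3-2, and 4.56, 4.12 and 4.83 and 7.10, 7.12 and 6.52 in sav1-1. Its rise was 2.68 in Col-0, -0.02 in sav3-2 and 2.41 in sav1-1 (SE 0.22), from a level near the lower end of the scale. 260152_at read 5.30, 4.75 and 5.44 and 8.0, 7.81 and 8.20 in Col-0, 5.11, 4.97 and 4.20 and 5.30, 5.39 and 5.0 in sav3-2, and 4.10, 4.62 and 4.65 and 7.90, 7.81 and 7.46 in sav1-1. It rose by 2.84, 0.47 and 3.27 (SE 0.22), which in sav3-2 was 16.5% of the Col-0 rise. 258399_at, singled out after its values had been seen, was the brightest of the 3 under low R:FR. Its values were 6.84, 6.66 and 6.80 and 10.15, 10.0 and 9.93 in Col-0, 6.0, 5.77 and 5.80 and 7.65, 7.27 and 6.60 in sav3-2, and 6.13, 6.04 and 5.96 and 10.16, 9.49 and 9.77 in sav1-1. It kept part of its response in sav3-2 (1.31, SE 0.19, against 3.26 in Col-0 and 3.76 in sav1-1).

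Members just inside and outside the limits had like values. At the limit of 50%, the shares of the Col-0 rise kept in sav3-2 were 49.98% (245397_at), 48.8% and 48.4% for the 3 members just inside. They were 50.6%, 51.0% and 52.1% for the 3 probe sets just outside. At the limit of 0.6, AT5G47380 was inside with rises of 0.65 in Col-0 and 0.60 in sav1-1, as were 247470_at (0.67 and 0.61) and AT2G36220 (0.63 and 0.76). IQD18, a calmodulin-binding protein by its family name, was outside with 0.70 and 0.58, and so were AT4G32350 (0.57 and 0.82) and 260058_at (0.71 and 0.56). With the limit at 33.3% of the Col-0 rise 21 members would be found, and with the rise limit at 0.8 there would be 24. On the values as deposited, with no normalization between arrays, the rule finds 18, of which 17 are among the 43.

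The rule was also applied without the 6 arrays of 1 replicate number, and the probe sets it found were then read on those 6 arrays. The arrays left out were not independent of the choice. All arrays had been quantile-normalized together, and the members and tests were chosen with earlier results of these data known. Without the arrays numbered 1 the rule found 59 probe sets, 36 of them among the 43. On the arrays numbered 1 their median rise was 0.80 in Col-0, 0.52 in sav3-2 and 0.99 in sav1-1. The rise in sav3-2 was below that in Col-0 for 41 of the 59, where 49.4% of all probe sets kept were, with a median difference of -0.33. Without the arrays numbered 2 it found 47, of which 33 are members. On the arrays left out their medians were 0.95, 0.41 and 1.1, and sav3-2 was below Col-0 for 46 of 47 (48.7% of all), with a median difference of -0.59. Without the arrays numbered 3 it found 36, of which 27 are members. Their medians were 1.08, 0.47 and 0.99 on the arrays left out, and sav3-2 was below Col-0 for 30 of 36 (50.3% of all), with a median difference of -0.66. Of the probe sets found, 59 of 59, 46 of 47 and 34 of 36 passed the filter on low values.

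The shortfall thus had the same direction on each of the 3 sets of arrays left out, which were not independent of the choice. It was smaller there than on the arrays to which the rule was applied. On the latter the medians in sav3-2 had been 0.26, 0.31 and 0.31. On the arrays left out, 22 of 59, 28 of 47 and 19 of 36 rose in Col-0 and by under 50% as much in sav3-2. The same held for 4649, 4961 and 5482 of all 17125 probe sets kept. The rise in Col-0 was at least 0.6 for 39, 39 and 28 of those chosen. For probe sets chosen the same way as shade-raised but not weakened, the median difference on the arrays left out was 0.00, -0.10 and -0.20. Of these, sav3-2 was below Col-0 for 50.4%, 54.8% and 65.0%, against 69.5%, 97.9% and 83.3% of those chosen as members. Each reading rests on 1 array per group and has no test. With a pseudocount of 1 in place of 16 the median difference on the arrays numbered 1 turned to 0.04 over 172 probe sets, 81 of them below 0. Of these 172, 92 passed the filter on low values, and their median difference was -0.30. The median differences on numbers 2 and 3 were -0.39 and -0.18 at that pseudocount, over 162 probe sets each. Over the 83 and 74 of them that passed the filter they were -0.44 and -0.50.

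**Figure D4:**
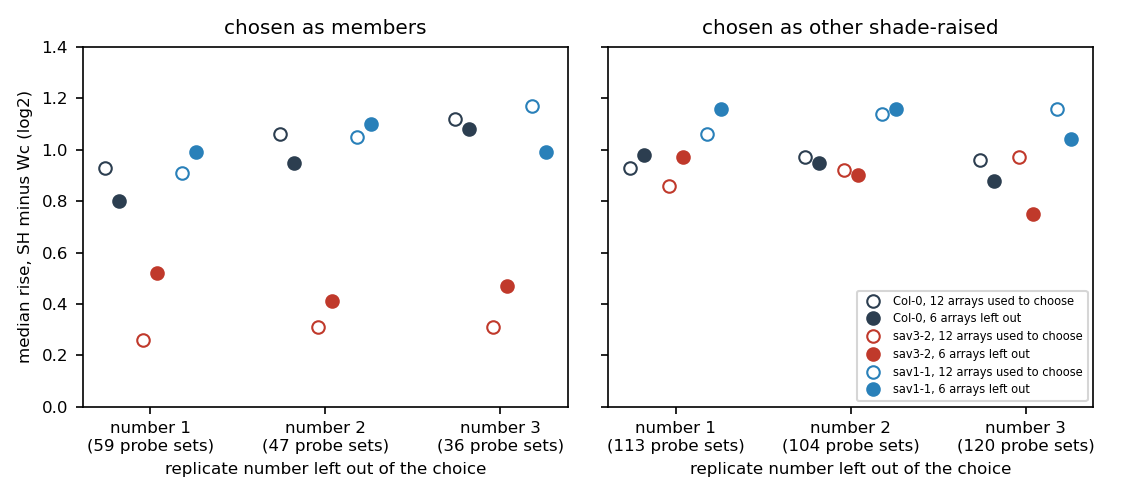
Median rise (SH minus Wc, log2) of probe sets chosen by the rule on 12 arrays (open circles) and read on the 6 arrays of the replicate number left out (filled circles), for those chosen as members (left) and as other shade-raised probe sets (right). On the arrays left out the sav3-2 medians on the left are 0.52, 0.41 and 0.47, below those of Col-0 and sav1-1 each time, and those on the right are nearer to Col-0.

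Whether the members already differed in white light was tested in the comparison of sav3-2 with Col-0 on the Wc arrays. These arrays also enter the rule, which favours members that are high in sav3-2 and low in Col-0 there. The median difference over the members was -0.18, against -0.19 over the 111 other shade-raised probe sets and 0.00 over all probe sets kept. The mean was lower in sav3-2 for 28 of the 43 members and for 91 of the 111 others. By limma, 2 members were called lower in sav3-2, where 0.210% of all probe sets were, and 0 higher (0.269%), with 11 lower and 0 higher at an unadjusted p under 0.05 (4.19% and 3.32% of all). Among the 111 others 7 were called lower, and 29 at an unadjusted p under 0.05. The 2 members called lower were 258399_at (-0.91, SE 0.19, adjusted p = 0.0272) and 245397_at (-0.81, SE 0.18, adjusted p = 0.0367). For both the 3 sav3-2 arrays lay below the 3 Col-0 arrays. 245397_at read 5.68, 5.54 and 5.58 in sav3-2 and 6.74, 6.39 and 6.10 in Col-0.

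Both calls lay near the threshold. When 1 array at a time was left out the difference stayed between -0.98 and -0.86 for 258399_at and between -0.97 and -0.65 for 245397_at. The call of 258399_at was lost without any 1 of the 6 white-light arrays of Col-0 and sav3-2. That of 245397_at was lost without any of these but Col-0 Wc replicate 3, and also without Col-0 SH replicate 2, sav3-2 SH replicate 1 or sav1-1 SH replicate 1 (adjusted p = 0.0503, 0.0515 and 0.0507). Without sav3-2 Wc replicate 3 neither was called but AT3G42800 was (-0.83, limma adjusted p = 0.0398), and without Col-0 Wc replicate 3 248282_at was called (-0.87, adjusted p = 0.0220). With the replicate number as a block 4 were called lower, the added ones being 248282_at (-0.70, adjusted p = 0.0193) and 267614_at (-0.55, adjusted p = 0.0417). The share of all probe sets called in that fit was not counted. Without a called difference, the sav3-2 arrays also lay wholly below those of Col-0 for AT3G50340, AT5G41400 and AT1G23340. In all this held for 11 members, where it did for 5.89% of all probe sets and for 27 of the 111 others, and the reverse held for 2, AT5G47380 and 245777_at (5.51% of all).

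The average over both lights gave a larger count. It holds 50% of the difference in shade response that the rule selected, and it rests on 6 arrays a genotype in place of 3. The share of all probe sets called lower also went up, from 0.210% to 1.33%, and the count among the 111 others from 7 to 28. How much each of these adds to the members' count was not tested. The counts are therefore given as measured, and nothing is read from them about a lower starting level. By limma, 22 members were lower in sav3-2 than in Col-0 on this average (1.33% of all probe sets) and 0 higher (0.923%), with 30 lower and 0 higher at an unadjusted p under 0.05 (6.79% and 6.48% of all). The named ones were AT3G50340 (-0.91, SE 0.09, adjusted p = 1.09e-06), AT5G41400 (-0.85, SE 0.10, adjusted p = 1.93e-05), AT3G42800 (-0.85, SE 0.13, adjusted p = 0.000291), AT1G23340 (-0.62, SE 0.12, adjusted p = 0.00374) and AT4G09890 (-0.48, SE 0.11, adjusted p = 0.0138). The last lost its call without Col-0 Wc replicate 1 (adjusted p = 0.0515). In white light alone none of these named members was called (limma adjusted p = 0.337, 0.551, 0.213, 0.784 and 0.745, in the same order). PUB25 (-0.43, adjusted p = 0.0810), AT1G02660 (-0.37, adjusted p = 0.0638) and AT2G36220 (-0.39, adjusted p = 0.0704) did not pass by limma. With the replicate number as a block they passed (adjusted p = 0.00864, 0.0372 and 0.0348). Their differences in white light alone were -0.02, -0.01 and -0.18, and none was called. Without normalization between arrays the calls of AT1G23340 and AT4G09890 ended. Of the 22, 261766_at, 259332_at and 259785_at passed the filter only through the choice itself.

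After low R:FR the mean was lower in sav3-2 than in Col-0 for all 43 members, with a median difference of -0.83 and a range from -2.85 to -0.16. All 3 shaded sav3-2 arrays lay below the 3 of Col-0 for 36 members (7.53% of all probe sets), a count that the rule favours. Set against the unshaded wild type, shaded sav3-2 seedlings had a median difference of 0.22 over the members, and for 13 of the 43 their mean was below that of Col-0 in white light. The 3 shaded sav3-2 arrays were above all 3 white-light arrays of Col-0 for 10 members (6.87% of all probe sets), among them AT1G02660, AT3G55840 and AT5G47380. Among the 111 other shade-raised probe sets the same held for 72, and the median difference there was 0.57.

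**Figure D5:**
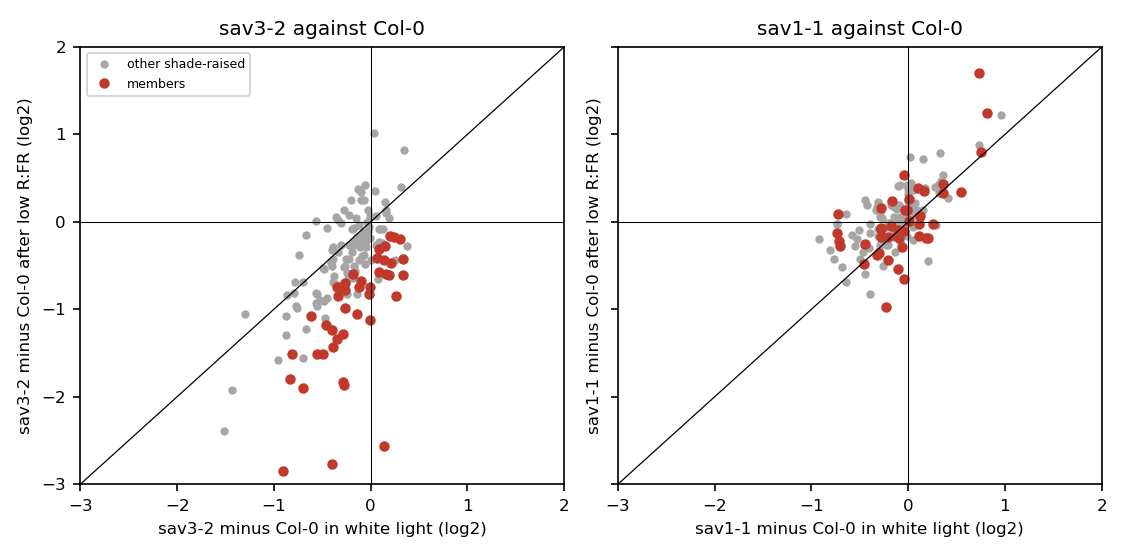
Each point is 1 of the 154 shade-raised probe sets (43 members in red, 111 others in grey), with the difference from Col-0 in white light on the horizontal axis and after low R:FR on the vertical axis (log2), for sav3-2 (left) and sav1-1 (right); the diagonal marks equal differences. For sav3-2 the members' white-light differences have a median of -0.18 and their shaded ones of -0.83, while for sav1-1 the medians are -0.06 and -0.08.

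In sav1-1 the members rose about as much as in Col-0. The rule asked for a rise of at least 0.6 in both, but not for equal rises. The rise in sav1-1 had a median of 103.02% of that in Col-0, from 59.70% for 266830_at to 187.59% for AT3G42800, and was larger for 23 members and smaller for 20. After shade the 3 sav1-1 arrays lay above all of Col-0 for 6 members (7.08% of all probe sets) and below them for 6 (7.24%). In white light they lay above for 5 (5.87%) and below for 8 (6.11%). The difference in rise had a median of 0.04 and ran from -0.73 to 0.97. Across the 43 members, the rises in sav1-1 and Col-0 had a Pearson correlation of 0.87, and those in sav3-2 and Col-0 one of 0.61. Over the 111 other shade-raised probe sets the correlation between sav1-1 and Col-0 was 0.94. Their rise in sav1-1 had a median of 115.25% of that in Col-0, and was larger for 84 and smaller for 27. Members share arrays and were chosen on these rises, so the correlations are descriptions.

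On the average over both lights, 4 members were higher in sav1-1 than in Col-0 (limma, 0.753% of all probe sets) and 1 was lower (0.782%). All 5 are unnamed, and they were singled out by their calls. 255177_at was higher by 1.22 (SE 0.19, adjusted p = 0.00120), 254120_at by 1.03 (SE 0.14, adjusted p = 0.000456) and 248448_at by 0.77 (SE 0.15, adjusted p = 0.00890). No fit without 1 array and no other setting tried ended these 3 calls. For 255177_at this is not independent of the choice, since it passed the filter only through shaded arrays that the rule requires to be high. For 254120_at the sav1-1 arrays read 6.49, 6.15 and 6.30 in white light and 7.56, 7.75 and 7.70 after shade, all above the Col-0 arrays of the same light (5.32, 5.60 and 5.57, then 6.05, 6.19 and 7.06). In sav3-2 the same probe set read 5.95, 5.91 and 5.53 and 6.54, 6.01 and 6.15.

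255177_at was near the lower end of the scale in Col-0 and sav3-2 in white light, and reached 7.33, 7.70 and 6.72 in shaded sav1-1 against 5.80, 5.31 and 5.54 in shaded Col-0. Its rise in sav1-1 was 2.09 against 1.12 in Col-0 and 0.21 in sav3-2 (SE 0.27). Outside shaded Col-0 and sav1-1 it exceeded the intensity of 16 on fewer than 3 arrays, so it passed the filter through the choice itself. Its difference from Col-0 in sav1-1 was 0.73 in white light (limma adjusted p = 0.531) and 1.70 after shade (adjusted p = 0.00736). The calls of 266832_at (0.44, adjusted p = 0.0424) and 247470_at (-0.35, adjusted p = 0.0350) were each lost in 11 of the 18 fits that left out 1 array, with the arrays of Col-0 and sav1-1 in both lights among them. In white light alone limma called 0 members higher (0.0292% of all probe sets) and 0 lower (0.0642%) in sav1-1, with 5 and 7 at an unadjusted p under 0.05 (3.46% and 3.61% of all). With the replicate number as a block 2 were lower there, 248282_at (-0.73, adjusted p = 0.0252) and 258399_at (-0.72, adjusted p = 0.0175), and 0 were higher. Here too the share of all probe sets called with the block was not counted. Between the mutants, 23 members were higher in sav1-1 than in sav3-2 on the average over both lights (1.61% of all probe sets) and 0 lower (1.26%), with 35 and 0 at an unadjusted p under 0.05 (6.72% and 6.15% of all). Of the 23, 261766_at, 259332_at, 254685_at and 255177_at passed the filter only through the choice itself. After shade the 3 sav3-2 arrays lay below the 3 of sav1-1 for 41 members (7.40% of all probe sets). The averaged contrast too holds 50% of a difference in response that the rule favours.

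The members were dimmer than the other shade-raised probe sets. Their mean level in Col-0 white light had a median of 5.65 on the log2(intensity + 16) scale, against 6.78 for the 111 others and 6.72 for all probe sets kept, and it was below 5 for 12 of the 43 and for 8 of the 111. The lowest possible value on this scale is 4, so the change of a dim member is understated there. Where sav3-2 starts closer to 4 than Col-0, its rise is understated more. How much of the members' shortfall this makes up was not tested. An example is 254065_at, which read 4.08, 4.09 and 4.09 in sav3-2 white light and 5.04, 4.76 and 4.93 in Col-0. With a pseudocount of 1 its difference, sav3-2 minus Col-0, was -2.91 in white light and -2.84 averaged over both lights. At that pseudocount it thus did not rise less in sav3-2 than in Col-0. Levels of different probe sets were read with different probes, and the median ranks describe intensity, not amounts of RNA.

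Of 9 lists of auxin, brassinosteroid, gibberellin and light signalling genes, only 3 had a gene named by a kept probe set, 5 genes in all, and none of the 5 is a member. FHL, which carries phytochrome A into the nucleus, rose in Col-0 (1.13, SE 0.27, limma adjusted p = 0.0343), in sav3-2 (1.21, adjusted p = 0.0289) and in sav1-1 (1.65, adjusted p = 0.000650). It is among the 111 shade-raised probe sets whose rise in sav3-2 was at least 50% of that in Col-0. The gibberellin receptors GID1A (0.13 in Col-0 and 0.39 in sav3-2), GID1B (0.21 and -0.05) and GID1C (-0.21 and -0.68), and LBD16, a factor of lateral root formation (0.24 and 0.09), did not pass the test in any genotype. A list of rapid stress and touch genes was written after the members had been seen. Of its 6 measured genes, none a member, 1 rose in each genotype, EXO, an extracellular protein of cell expansion (0.98 in Col-0, 0.81 in sav3-2 and 1.25 in sav1-1, SE 0.16, limma adjusted p = 0.000903, 0.0106 and 3.85e-05). The list had a median of 0.06, -0.02 and 0.02, and its part in the members' values was not tested.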

How the data were processed

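The deposited intensity values, 1 column per array for 22810 probe sets, were made by the authors with GCRMA, per the submitters' processing notes, which give no version. The table is on a linear scale, and no column belonged to another sample (0 columns). After 64 control probe sets had been left out, arrays were quantile-normalized and values taken as log2(deposited intensity + 16). The 17125 probe sets above 4 on the log2 intensity scale on at least 3 arrays were fitted with limma 3.58.1 in R 4.3.3, as 1 model of all 18 arrays with 6 groups and an intensity trend. Adjusted p is Benjamini-Hochberg's over the 17125, with a threshold of 0.05. SEs are limma's, with n = 3 arrays per group, and precision is limited by how many arrays there are. The fit was tested on simulated data.

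Of 22746 probe sets, 13513 name 1 gene in the platform annotation, 503 name several and 8730 are unnamed here, and 13436 matched a TAIR10.1 gene table used for names only. The members, lists and tests were chosen with earlier results of these data known. Every member that names 1 gene could be named, with the 2 unnamed ones of largest shortfall. The rule also asked for array values of every member called in an averaged contrast and of the neighbours of the limits. For most unnamed ones the heat map shows the members' values, and the neighbours are given by their rises. A planned description of promoter motifs was not made, as sequences were not used here.

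The replicates are independent biological ones per the series' design text. Numbers were taken to pair groups where the deviations of same-numbered arrays correlated above 0.1 for all 3 numbers. This held for sav3-2 with Col-0 (lowest 0.105 in white light and 0.101 in shade), for sav3-2 with sav1-1 (0.127 and 0.157), for sav1-1 with Col-0 in white light (0.163) and between the lights in sav3-2 (0.105) and sav1-1 (0.108). It did not hold between the lights in Col-0 (0.0714) or for shaded sav1-1 with Col-0 (0.0963). The main fit has no term for the replicate number and so does not use this pairing. The fit with the replicate number as a block is given beside it. Alternatives changed the normalization, pseudocount, filter, block, array weights, trend, limits and arrays.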

Additional observations from a re-analysis of the deposited data

Results flagged for a closer look

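By limma's test of the difference in shade response, which the choice of members used, 5 members rose less in sav3-2 than in Col-0 at an adjusted p under 0.05 (0.0409% of all probe sets tested). The differences, sav3-2 minus Col-0, were -2.70 for 261766_at, -2.37 for 260152_at, -1.95 for 258399_at, -1.53 for 259332_at and -1.04 for AT3G50340. Of these, 261766_at and 259332_at passed the filter on low values only through shaded Col-0 and sav1-1 arrays, which the rule requires to be high. In the same test 4 members rose more in sav1-1 than in sav3-2 (0.0409%). These differences were 2.43 for 261766_at, 2.80 for 260152_at, 2.45 for 258399_at and 2.02 for 248282_at. Since the members were chosen for a smaller rise in sav3-2, neither count is independent evidence of it. By the same limma test, 0 of all 17125 probe sets differed in response between sav1-1 and Col-0, so the 0 among the members says nothing particular to them. At an unadjusted p under 0.05, 3 members were higher and 1 lower, where 1.37% and 1.15% of all probe sets were.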

How the results depend on the processing

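Without normalization between arrays, the rule found 18 members, and the counts of members called were 22 for shade in Col-0, 2 for a smaller response in sav3-2, 0 lower in sav3-2 in white light and 0 lower in sav1-1 on average. The median rise in sav3-2 was 0.40. The median differences on the arrays left out were -0.82, -0.51 and -0.56 for numbers 1, 2 and 3. Over all probe sets kept they were 0.04, 0.36 and 0.43. With a pseudocount of 1 the rule found 56 members, 36 of them among the 43. The median rises of the 43 were then 1.5, 0.48 and 1.66 in Col-0, sav3-2 and sav1-1. Shade calls in sav3-2 were 6, smaller responses in sav3-2 1 and larger ones in sav1-1 than in sav3-2 2. The differences on arrays left out were 0.04, -0.39 and -0.18, and -0.30, -0.44 and -0.50 over the probe sets that passed the filter. With a pseudocount of 32 the rises were 0.73 in Col-0 and 0.94 in sav1-1, and 0 members were lower in sav3-2 in white light, as without the filter or the trend (0 each). Without the trend 0 were lower in sav1-1. A fit with a replicate block gave counts of 8 for shade in sav3-2, 4 lower in sav3-2 and 2 lower in sav1-1 in white light, and 3 lower in sav1-1 on average. The block moved no other count of calls by over 1.5 times. Array weights gave 3 lower in sav1-1 on average, 2 higher there in white light, 6 shade calls in sav3-2 and 8 smaller responses. Without all arrays numbered 3 the last counts were 5 and 3. Limits of 1/3 and 2/3 of the Col-0 rise gave 21 and 69 members, and a rise of at least 0.8 gave 24. Leaving out 1 array at a time gave 0 to 2 members lower in sav3-2 in white light, 0 to 2 lower in sav1-1 on average, and 0 to 1 higher and 0 to 1 lower in sav1-1 in white light. It gave 2 to 5 shade calls in sav3-2, 3 to 8 smaller responses, and median rises of 1.00 to 1.20 in Col-0 and 1.09 to 1.22 in sav1-1. The cause of these changes was not tested. Shares of all probe sets called were not counted under the alternatives, so the changed counts are no result about the members. The white-light contrast, the other scales for arrays left out and the stress list were chosen after seeing the data.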
